A study of Homo sapiens with 6 samples.

Results

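Vimentin and the other cytoplasmic intermediate filament genes outside the keratin family were followed in 21NT cells with and without TBX3 overexpression. The members were 10 genes listed by name: *VIM*, *NES*, *DES*, *GFAP*, *PRPH*, *INA*, *NEFL*, *NEFM*, *NEFH* and *SYNM*. The expression table held a row for 7 of them among its 20824 genes, while *INA*, *NEFL* and *NEFM* were not analysed here. Only *VIM*, *NES* and *SYNM* reached the mean of 0.5 RPKM that the test across genes required (RPKM are reads relative to transcript length and library alignments). The other 4 stayed under it and are given by their values.

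Intermediate filaments are rope-like polymers that carry mechanical load through the cytoplasm, and each tissue builds them from its own subunits. Epithelial cells use keratins, whereas vimentin is the filament of fibroblasts and other mesenchymal cells and is gained by carcinoma cells that undergo epithelial to mesenchymal transition (EMT). Desmin belongs to muscle, GFAP to astrocytes and other glia, peripherin and the neurofilament chains to neurons, nestin to progenitor cells and synemin to muscle and to cells in which it copolymerizes with vimentin or desmin.

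21NT is a human breast cancer line that the study used as a model of ductal carcinoma *in situ* (DCIS). It was stably transfected with pcDNA3.1 carrying no insert (EV), TBX3iso1 or TBX3iso2, and all 3 lines were kept under G418. TBX3iso1 and TBX3iso2 are splice isoforms of a T-box transcription factor, and each line was a pool of resistant cells. RNA was taken from cultures short of confluence, and 2 libraries were sequenced per line, 6 in all. The 2 libraries of a line come from 1 transfected pool, and no source says whether they come from separate cultures, so p-values may measure technical spread only.

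The libraries held 43176600 to 54512400 alignments. *TBX3*, the check of the labels, was lowest in both EV libraries and highest in both TBX3iso2 libraries, and its mean was 1.46 times that of EV with TBX3iso1 and 1.97 times with TBX3iso2. With TBX3iso1 its log2 difference of 0.54 lay under the 1.5-fold threshold used below, so *TBX3* was not called there. With TBX3iso2, at 0.97, *TBX3* was called higher. The keratins *KRT8* and *KRT18*, which define simple epithelium, were 541 to 802 RPKM in all libraries, and all 10 epithelial markers passed the filter. Of these markers, 4 fell with TBX3iso1 and 2 with TBX3iso2, as given below. In RNA from a whole culture, a smaller number of expressing cells and less RNA per cell cannot be told apart, and the same holds for a rise.

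The sequences below locate what was counted for vimentin and what lies in front of the members that were expressed. *VIM* lies on chromosome 10 of GRCh37 (hg19) from 17270240 to 17279592 on the plus strand, with 10 exons in its canonical transcript. The study's RT-qPCR primers for vimentin each matched that transcript 1 time. The forward primer lies in the coding part of exon 2 (chr10:17271904-17271921, plus strand) and the reverse primer in the coding part of exon 4 (chr10:17275602-17275621, minus strand), so that a 178-base product spans exons. They are printed 5′ to 3′ because they define which vimentin RNA the study measured by a separate assay.
VIM forward primer: ggaccagctaaccaacga
VIM reverse primer: aaggtcaagacgtgccagag

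Of the 7 genes, *VIM*, *NES*, *SYNM* and *PRPH* had an entry in the RefSeq promoter table (GRCh38.p14), and their windows were found again in GRCh37. *DES*, *GFAP* and *NEFH* had none. The 250 bases before the start are shown for the 3 members that were tested, on the gene's own strand and with motif matches in capitals. They end at the RefSeq start, which for *SYNM* lies inside the span annotated for the gene and not at its left edge.
VIM, chr10:17269990-17270239, plus strand: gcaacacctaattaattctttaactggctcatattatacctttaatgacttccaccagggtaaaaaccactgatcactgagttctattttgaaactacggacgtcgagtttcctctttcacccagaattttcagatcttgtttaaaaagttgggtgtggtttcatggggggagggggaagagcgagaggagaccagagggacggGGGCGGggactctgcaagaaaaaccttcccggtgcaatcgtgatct
NES, chr1:156647200-156647449, minus strand: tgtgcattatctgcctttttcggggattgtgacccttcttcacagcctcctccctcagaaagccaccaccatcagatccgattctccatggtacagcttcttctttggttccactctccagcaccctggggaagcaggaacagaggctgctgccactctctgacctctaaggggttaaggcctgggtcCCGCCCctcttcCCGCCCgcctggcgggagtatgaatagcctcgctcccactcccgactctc
SYNM, chr15:99645036-99645285, plus strand: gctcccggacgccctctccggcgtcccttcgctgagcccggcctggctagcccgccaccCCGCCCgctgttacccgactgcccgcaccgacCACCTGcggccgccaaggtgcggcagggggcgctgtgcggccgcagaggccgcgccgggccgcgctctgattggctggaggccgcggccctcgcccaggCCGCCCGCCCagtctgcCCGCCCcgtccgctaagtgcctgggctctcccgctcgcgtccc

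The capitals mark the GC box (GGGCGG, or CCGCCC on the other strand) and, in *SYNM* alone of these 3, the E-box CACCTG that SNAI and ZEB factors bind. Both strands were searched, and overlapping matches were counted separately, as in the *SYNM* run where 2 GC boxes overlap. *VIM* held 1 GC box at -46 from the start, *NES* held 2 at -62 and -50, and *SYNM* held 4 between -191 and -43 and its E-box at -159. Of 27305 promoters of the same length, 42.3% held a GC box and 17.5% held CACCTG or its complement. The T-box core letters GGTGTGA, found in 2.72% of promoters, and the AP-1 letters TGANTCA, found in 6.6%, did not occur in the windows of *VIM*, *NES*, *SYNM* or *PRPH*. *PRPH* held TATAAA at -31, as 11.1% of promoters did in some position. GC content was 46% for *VIM*, 58% for *NES* and 78.8% for *SYNM*, beside a median of 58% over all promoters. These matches describe letters in the windows and say nothing of which factor was bound. Each window stands before 1 annotated start per gene. Sequence before any start further inside a gene, such as any nearer to the coding part of exon 2 of *VIM*, was not searched.

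*VIM* was the member with the highest level in every line, and it rose with both TBX3 isoforms, further with TBX3iso2. The EV libraries had 18.5 and 18.9 RPKM, the TBX3iso1 libraries 147 and 160 RPKM, and the TBX3iso2 libraries 260.1 and 278 RPKM. The 3 lines formed 3 groups without overlap, and the gap between lines was wider than the gap between libraries of a line. Against EV, the log2 fold change was 3.03 with TBX3iso1 (95% confidence interval 2.84 to 3.22, adjusted p = 1.58e-06, limma) and 3.84 with TBX3iso2 (3.65 to 4.02, adjusted p = 4.13e-07), which are ratios of means of 8.20 and 14.4. TBX3iso2 exceeded TBX3iso1 by 0.81 on the log2 scale (0.62 to 1.00, adjusted p = 0.00115), a ratio of 1.75. *TBX3* itself also stood higher in the TBX3iso2 line, at 16.5 ± 1.41 RPKM against 12.3 ± 1.23 RPKM (SD, n = 2), so isoform and amount of *TBX3* RNA cannot be told apart here.

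Among all 20824 genes, *VIM* ranked 3475 from the top in EV, 366 with TBX3iso1 and 158 with TBX3iso2. In EV, 83.3% of genes had a lower mean, so vimentin RNA was present in the control line, which carried neither isoform construct. With the isoforms that share was 98.2% and 99.2%.

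Of the 3 members tested, 2 were differentially expressed and higher with TBX3iso1 (*VIM* and *NES*) and the same 2 with TBX3iso2, where a call needed both a fold change above 1.5 and an adjusted p below 0.05. Over all 12805 genes tested, 21.5% were called with TBX3iso1, 7.46% higher and 14.1% lower. With TBX3iso2, 21.2% were called, 8.94% higher and 12.3% lower. Between the isoforms *VIM* was the 1 member called, and 6.29% of genes were, 3.47% higher with TBX3iso2 and 2.82% lower. Both isoforms were compared with the same EV libraries, so their results are not independent of each other.

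**Figure D1:**
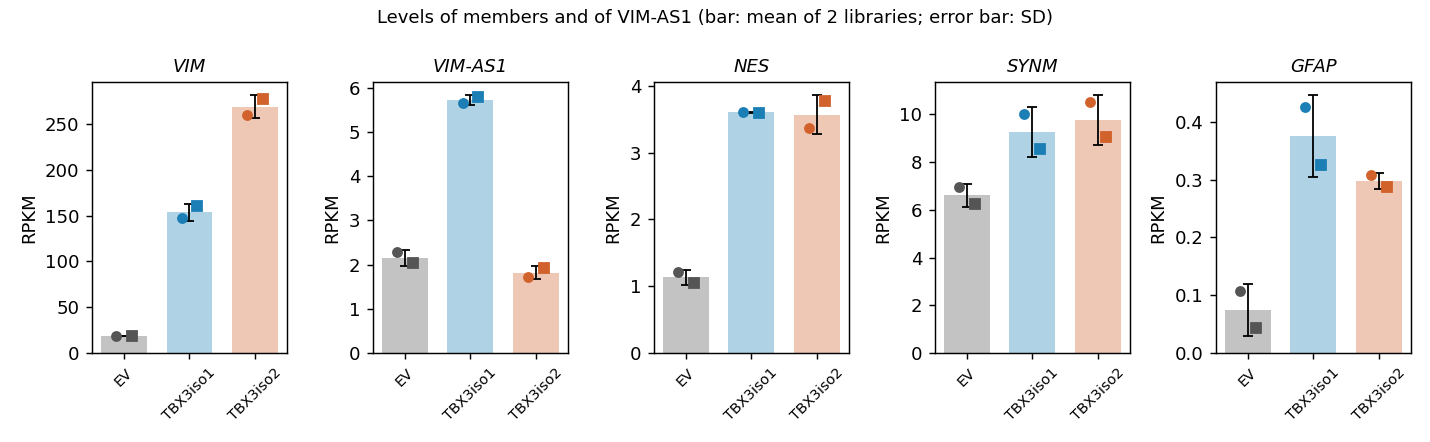
RPKM of *VIM*, its antisense gene *VIM-AS1*, *NES*, *SYNM* and *GFAP* in the EV (grey), TBX3iso1 (blue) and TBX3iso2 (orange) lines, each panel on its own linear axis from 0. Circles and squares are replicates 1 and 2, bars their mean and error bars the SD. *VIM* climbs from EV to TBX3iso1 to TBX3iso2, *VIM-AS1* is high with TBX3iso1 alone, and *NES* stands at a like level in both isoform lines.

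*VIM-AS1*, a noncoding gene on the minus strand at chr10:17256238-17272017 that overlaps the start of *VIM*, did not move as *VIM* did. It was 2.28 and 2.03 RPKM in EV, 5.64 and 5.80 RPKM with TBX3iso1, and 1.71 and 1.92 RPKM with TBX3iso2. The TBX3iso1 libraries stood above the other 4, and the TBX3iso2 libraries lay under those of EV. The change was 1.37 with TBX3iso1 (1.10 to 1.64, adjusted p = 1.08e-04) and -0.23 with TBX3iso2 (-0.50 to 0.03, adjusted p = 0.132) on the log2 scale. TBX3iso2 was lower than TBX3iso1 by a log2 difference of -1.60 (-1.87 to -1.34, adjusted p = 2.79e-04). The annotated exons of *VIM-AS1* share 656 bases, 30.9% of their length, with exons of *VIM* on the opposite strand. The libraries were stranded by kit, but whether strand was used for the RPKM is not given in the sources used here, so reads of the overlap may stand under either gene. In the TBX3iso2 libraries, where *VIM* was highest, *VIM-AS1* was lowest.

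No 51-base window of the canonical *VIM* transcript, the length of a read, occurred on the same strand in a transcript of another gene, and the same was true of *NES*, *SYNM*, *GFAP* and *DES*. *PRPH* shared 9 such windows with other genes and *NEFH* 89. On the opposite strand, 37.6% of *VIM* windows, 27.65% of *SYNM* windows (*SYNM-AS1* and *SYNM-AS2*) and 49.9% of *PRPH* windows occurred in other genes. The part of such reads in the values was not tested. The nearest genes of the table on either side of *VIM* were *TRDMT1* and *CUBN* on the left and *ST8SIA6* and *HACD1* on the right. *TRDMT1*, *CUBN* and *ST8SIA6* had at most 0.514 RPKM in any library and were not tested. *HACD1*, 351439 bases away, averaged 11.2 ± 0.523 RPKM in EV (SD, n = 2), against 8.36 ± 0.533 with TBX3iso1 and 9.39 ± 0.913 with TBX3iso2, lower by under 1.5-fold and not called.

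*NES* encodes nestin, a large filament subunit of neural and muscle progenitors that also forms filaments with vimentin. It lies on chromosome 1 from 156638555 to 156647199 on the minus strand. It was 1.22 and 1.05 RPKM in EV, 3.61 and 3.60 RPKM with TBX3iso1, and 3.37 and 3.78 RPKM with TBX3iso2. All 4 isoform libraries stood above both EV libraries, and the TBX3iso1 values fell inside the range of TBX3iso2. The log2 fold change was 1.59 with TBX3iso1 (1.31 to 1.87, adjusted p = 7.05e-05) and 1.57 with TBX3iso2 (1.29 to 1.85, adjusted p = 7.28e-05). The difference between the isoforms was -0.02 (-0.30 to 0.27, adjusted p = 0.951), an interval that leaves room for differences of either sign and does not show equal levels. The RPKM of *NES* were scaled by each library's alignments and by a small library factor estimated from low genes. That factor was 0.996 to 1.02 relative to EV replicate 2. On this scale the *NES* values were whole multiples (within 0.02) of a common step. There were 299 and 204 steps in EV and between 723 and 818 in the isoform libraries. A step may stand for 1 or more reads, so the rise rests on at least 204 steps in each library.

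*SYNM* encodes synemin, which does not form filaments alone and links vimentin or desmin to the cell cortex. It lies on chromosome 15 from 99638420 to 99675798 on the plus strand. The values were 6.96 and 6.25 RPKM in EV, 10.0 and 8.54 RPKM with TBX3iso1, and 10.5 and 9.03 RPKM with TBX3iso2. All 4 isoform libraries lay above both EV libraries, while the isoform lines overlapped. The log2 difference from EV was 0.48 with TBX3iso1 (0.21 to 0.75, adjusted p = 0.0124) and 0.56 with TBX3iso2 (0.29 to 0.83, adjusted p = 0.00659), under the 1.5-fold threshold with both, so *SYNM* was not called. The isoforms differed by 0.07 (-0.20 to 0.35, adjusted p = 0.716).

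Replicate 2 was lower than replicate 1 for *SYNM* in all 3 lines. Its canonical transcript has 7352 bases, and over the 2017 genes with at least 6000 bases the median log2 ratio of replicate 2 to replicate 1 was -0.17 with TBX3iso1 and -0.26 with TBX3iso2. Over the 3113 genes under 2000 bases it was 0.15 and 0.16, and in EV it was -0.05 and 0.00 for the long and short genes. Without TBX3iso1 replicate 2 the *SYNM* difference was 0.59, and without TBX3iso2 replicate 2 it was 0.66, both past the fold threshold. The part of transcript length in the *SYNM* result was not tested.

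*GFAP*, *PRPH*, *DES* and *NEFH* were under 0.5 RPKM in every library. *GFAP*, the filament of astrocytes, was 0.106 and 0.0426 RPKM in EV, 0.425 and 0.325 RPKM with TBX3iso1, and 0.308 and 0.288 RPKM with TBX3iso2. All 4 isoform libraries were above both EV libraries, on 19 and 6 steps in EV against 40 to 70 in the others. Without the filter on low values, limma gave a log2 change of 1.46 with TBX3iso1 (0.87 to 2.05, adjusted p = 0.0125) and 1.21 with TBX3iso2 (0.62 to 1.80, adjusted p = 0.0200), which would be called. The isoforms differed by -0.25 (-0.84 to 0.34, adjusted p = 0.583). Of the 51-base windows of the *GFAP* transcript, 40.0% lie opposite transcripts of *CCDC103* and *FAM187A*. *CCDC103*, a gene looked at after its overlap was seen, was 2.32 and 1.83 RPKM in EV, 2.37 and 3.39 RPKM with TBX3iso1, and 3.38 and 3.26 RPKM with TBX3iso2, several times the level of *GFAP*. The part of its reads in the *GFAP* values was not tested.

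*PRPH*, the type III filament of peripheral neurons, was 0.185 and 0.0469 RPKM in EV, 0.0668 and 0.0825 RPKM with TBX3iso1, and 0.133 and 0.158 RPKM with TBX3iso2. The EV libraries spanned all the others, and without the filter its log2 changes of -0.23 and 0.26 were not called (adjusted p = 0.640 and 0.601). *DES*, the filament of muscle, had 0 to 2 steps per library and at most 0.0449 RPKM. *NEFH*, the heavy neurofilament chain, was listed at 0 in 5 libraries and had 1 step in TBX3iso1 replicate 2. No difference in *DES* or *NEFH* was detectable at this depth.

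**Figure D2:**
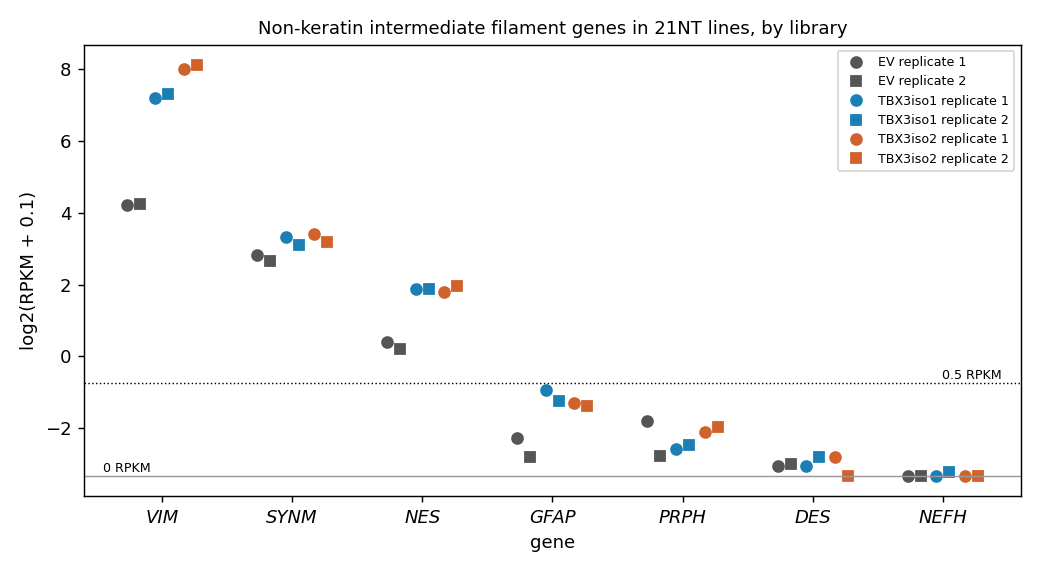
log2(RPKM + 0.1) of the 7 members with a row in the table, by library. Grey, blue and orange mark EV, TBX3iso1 and TBX3iso2, circles and squares replicates 1 and 2, the dotted line a level of 0.5 RPKM and the solid line 0 RPKM. *VIM*, *SYNM* and *NES* lie above the dotted line in every library, and *GFAP*, *PRPH*, *DES* and *NEFH* lie below it.

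On the RPKM scale, which is per length, the order of the members was *VIM*, *SYNM*, *NES* in every library, and these 3 did not overlap within a line. *GFAP* came next in both isoform lines. In EV, *GFAP* and *PRPH* overlapped, where *PRPH* had 15 and 3 steps, and *DES* had 1 step in each library. *VIM* made up 68.6% and 71.9% of the summed RPKM of the members in EV, 91.2% and 92.7% with TBX3iso1, and 94.8% and 95.4% with TBX3iso2.

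Set against the keratins, vimentin remained the minor filament RNA. The 36 keratin genes of the table summed to between 3197 and 3839 RPKM per library, with no order by line. *VIM* was 0.532% and 0.564% of the summed keratin and member RPKM in EV, 4.37% in both TBX3iso1 libraries, and 7.14% and 6.72% with TBX3iso2. The lines did not overlap. The ratio of *VIM* to *KRT18*, a keratin of simple epithelia, was 0.0306 and 0.0314 in EV, 0.260 and 0.245 with TBX3iso1, and 0.375 and 0.346 with TBX3iso2.

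**Figure D3:**
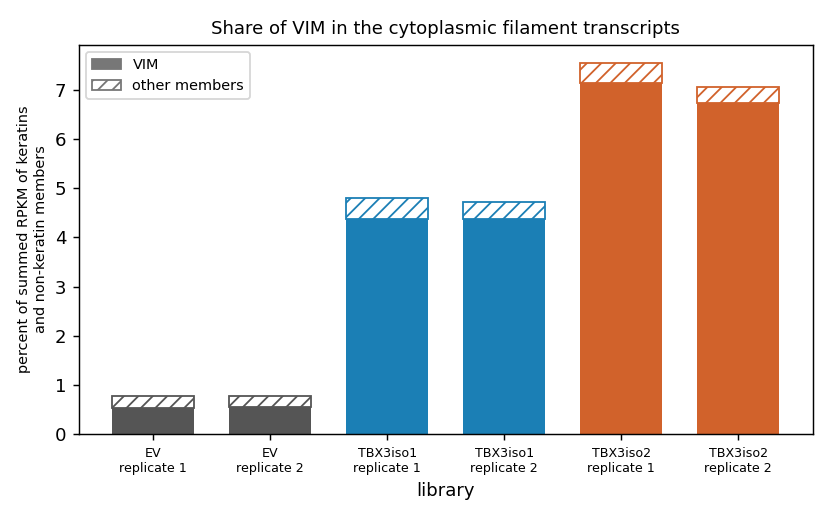
Share of *VIM* (filled) and of the other members (hatched) in the summed RPKM of 36 keratin genes and the members, in percent, by library. The EV bars reach under 1%, the *VIM* part is 4.37% in both TBX3iso1 libraries and 7.14% and 6.72% in the TBX3iso2 libraries.

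The other non-keratin filament genes included the nuclear lamins and lens filament proteins. Of 5 tested, 1 rose with TBX3iso1 and 2 rose with TBX3iso2, and their median log2 changes were 0.51 and 0.46, beside -0.05 and 0.00 over all genes tested. The shares of all genes tested that rose were 7.46% with TBX3iso1 and 8.94% with TBX3iso2. *LMNA*, which encodes the A-type lamins of the nuclear envelope, was 114 and 108 RPKM in EV, 190 and 201 RPKM with TBX3iso1, and 179 and 193 RPKM with TBX3iso2. Its isoform libraries all stood above EV, by 0.82 (adjusted p = 3.15e-04) and 0.75 (adjusted p = 4.48e-04) on the log2 scale. *IFFO2*, a gene with an intermediate filament domain, rose with TBX3iso2 by 0.65 (adjusted p = 0.00136) and differed by 0.51 with TBX3iso1, under the fold threshold. The TBX3iso2 change of *IFFO2* was not called without EV replicate 2 (0.57) or at a pseudocount of 1 (0.56).

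The plakins fasten filaments to junctions and to other parts of the cytoskeleton. None of 7 rose, and 2 fell with each isoform, with medians of -0.34 and -0.01. Among all genes tested, 7.46% rose and 14.1% fell with TBX3iso1, and 8.94% and 12.3% with TBX3iso2. *PPL*, which encodes periplakin of the cornified envelope and desmosomes and whose tail binds keratins and vimentin, was 52.0 and 49.2 RPKM in EV, 18.2 and 14.9 RPKM with TBX3iso1, and 18.7 and 15.1 RPKM with TBX3iso2. The EV libraries stood well above the others, with log2 changes of -1.61 (adjusted p = 8.13e-05) and -1.58 (adjusted p = 8.82e-05). *PLEC*, which encodes plectin, the main linker of vimentin to actin and microtubules, had log2 differences of 0.08 (-0.32 to 0.48) and 0.16 (-0.24 to 0.55) and was not called. *EPPK1* (epiplakin) fell with TBX3iso1 by a log2 change of -0.75 (adjusted p = 0.0207) and *DSP* (desmoplakin) with TBX3iso2 by -0.67 (adjusted p = 0.0239), and both calls were lost without the filter on low values. The *EPPK1* call was also lost at a pseudocount of 1 (-0.38), under quantile normalization (-0.53), and without EV replicate 1 (-0.73), EV replicate 2 (-0.77) or TBX3iso1 replicate 2 (-0.54), and the *DSP* call without EV replicate 1 (-0.64), EV replicate 2 (-0.70) or TBX3iso2 replicate 2 (-0.38). *EPPK1* and *DSP* were also lower in replicate 2 of both isoform lines.

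Of 15 kinases and phosphatases that act on vimentin or its assembly, 3 fell and none rose with TBX3iso1, and 2 fell and 2 rose with TBX3iso2, with medians of 0.12 and 0.29. Among all genes tested, 14.1% fell and 7.46% rose with TBX3iso1, and 12.3% and 8.94% with TBX3iso2. *PRKACA*, a catalytic subunit of protein kinase A, which phosphorylates vimentin in its head domain, fell with both isoforms, by log2 changes of -0.74 (adjusted p = 5.44e-04) and -0.72 (adjusted p = 5.74e-04). *CAMK2D* fell with TBX3iso1 by -0.79 (adjusted p = 5.08e-04). *CAMK2G* fell by -0.59 and -0.64 with TBX3iso1 and TBX3iso2 (adjusted p = 0.00153 and 0.00105), near the fold threshold. With TBX3iso1 it was not called without EV replicate 2 (-0.56) or TBX3iso1 replicate 2 (-0.58), nor with TBX3iso2 without TBX3iso2 replicate 2 (-0.56). Its TBX3iso1 call was also lost at a pseudocount of 1 (-0.53), under median-ratio scaling (-0.54) and under quantile normalization (-0.50), and its TBX3iso2 call at a pseudocount of 1 (-0.57). *PAK1*, a kinase that loosens vimentin filaments, rose with TBX3iso2 by 0.73 (adjusted p = 1.96e-04) and *AURKB*, which phosphorylates vimentin in dividing cells, by 0.63 (adjusted p = 0.00189). With TBX3iso1 these 2 had differences of 0.50 and 0.52, under the fold threshold, and without TBX3iso2 replicate 2 the *AURKB* difference with TBX3iso2 was 0.51 and not called, as under quantile normalization (0.54).

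Among 13 genes of filament chaperones, transport and turnover, 1 rose and 2 fell with each isoform, and the medians were -0.01 and 0.07. These counts were close to the shares of all genes tested, 7.46% higher and 14.1% lower with TBX3iso1, and 8.94% and 12.3% with TBX3iso2. *PADI2* encodes a peptidylarginine deiminase, an enzyme that converts arginine in proteins, vimentin included, to citrulline. It was 30.6 and 30.1 RPKM in EV, 3.50 and 2.62 RPKM with TBX3iso1, and 4.99 and 4.52 RPKM with TBX3iso2. The EV libraries were far above the other 4, and the log2 changes were -3.28 (adjusted p = 5.65e-06) and -2.65 (adjusted p = 1.18e-05). *HSPB8*, a small heat shock protein, rose by 1.06 (adjusted p = 8.79e-05) and 0.90 (adjusted p = 1.79e-04), and *HSPB1*, which binds filaments, fell by log2 changes of -0.79 (adjusted p = 0.00188) and -0.62 (adjusted p = 0.00538). The *HSPB1* call with TBX3iso2 was lost without EV replicate 1 (-0.56) or TBX3iso2 replicate 1 (-0.49).

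The transcription factors linked to *VIM* in the literature of the field moved in both directions. Of 14 tested, 4 rose and 2 fell with TBX3iso1 and 3 rose and 2 fell with TBX3iso2, with medians of -0.09 and -0.10. Among all genes tested, 7.46% rose and 14.1% fell with TBX3iso1, and 8.94% and 12.3% with TBX3iso2. *SNAI2* (SLUG), an EMT factor, rose by 1.14 (adjusted p = 5.23e-05) with TBX3iso1 and 0.65 (adjusted p = 6.16e-04) with TBX3iso2, in the opposite order to *VIM*, and its call with TBX3iso2 was lost without TBX3iso2 replicate 1 (0.58). *SNAI1* and *TWIST1*, EMT factors as well, fell. *SNAI1* had log2 changes of -1.55 and -1.12 (adjusted p = 1.72e-04 and 7.24e-04) and *TWIST1* of -0.73 and -1.16 (adjusted p = 3.09e-04 and 4.16e-05).

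*FOSL1*, an AP-1 subunit, was ordered as *VIM* was, with 163 and 158 RPKM in EV, 242 RPKM in both TBX3iso1 libraries, and 393 and 371 RPKM with TBX3iso2. The 3 lines did not overlap, and the log2 changes were 0.60 (adjusted p = 0.00129) and 1.25 (adjusted p = 4.73e-05), with 0.66 between the isoforms (adjusted p = 0.00331). Its call with TBX3iso1 was lost under quantile normalization, where the difference was 0.46, and without EV replicate 2 (0.57). *JUN*, its AP-1 partner, rose by 0.65 (adjusted p = 0.00274) and 0.60 (adjusted p = 0.00379), and *ZEB1* rose with TBX3iso1 by 0.60 (adjusted p = 0.0311), a call that was lost without the filter on low values and at a pseudocount of 1 (0.37). The *JUN* call with TBX3iso2 was lost at a pseudocount of 1 (0.58), under quantile normalization (0.52), and without EV replicate 2 (0.57) or TBX3iso2 replicate 1 (0.43), and that of *ZEB1* without EV replicate 1 (0.57), EV replicate 2 (0.63) or TBX3iso1 replicate 1 (0.49).

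Of 14 keratins tested, 4 rose and 2 fell with TBX3iso1, and 2 rose and 3 fell with TBX3iso2, with medians of 0.03 and 0.12. Among all genes tested, 7.46% rose and 14.1% fell with TBX3iso1, and 8.94% and 12.3% with TBX3iso2. *KRT8* and *KRT18*, the keratins of simple epithelium, had log2 differences of -0.24 (-0.52 to 0.04) and 0.01 (-0.30 to 0.31) with TBX3iso1 and 0.12 (-0.16 to 0.40) and 0.30 (0.00 to 0.61) with TBX3iso2, and none was called. *KRT5* and *KRT16* rose with both isoforms and *KRT15* and *KRT86* fell with both, though *KRT16* with TBX3iso2 was not called without EV replicate 1 (0.63) or at a pseudocount of 1 (0.50). *KRT6A* and *KRT6B* rose with TBX3iso1, by 0.71 (adjusted p = 0.00123) and 0.69 (adjusted p = 0.00928), and *KRT19* fell with TBX3iso2 by a log2 change of -0.72 (adjusted p = 0.00212). *KRT6B* is named after its values were seen, since it completes the count, and its TBX3iso1 change was not called without EV replicate 2 (0.50) or at a pseudocount of 1 (0.56). *KRT6A* and *KRT6B* have near-identical sequences, as have *KRT81* and *KRT86*, so their split of reads is uncertain. Under quantile normalization *KRT6A* differed by 0.50 with TBX3iso1 and was not called.

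**Figure D4:**
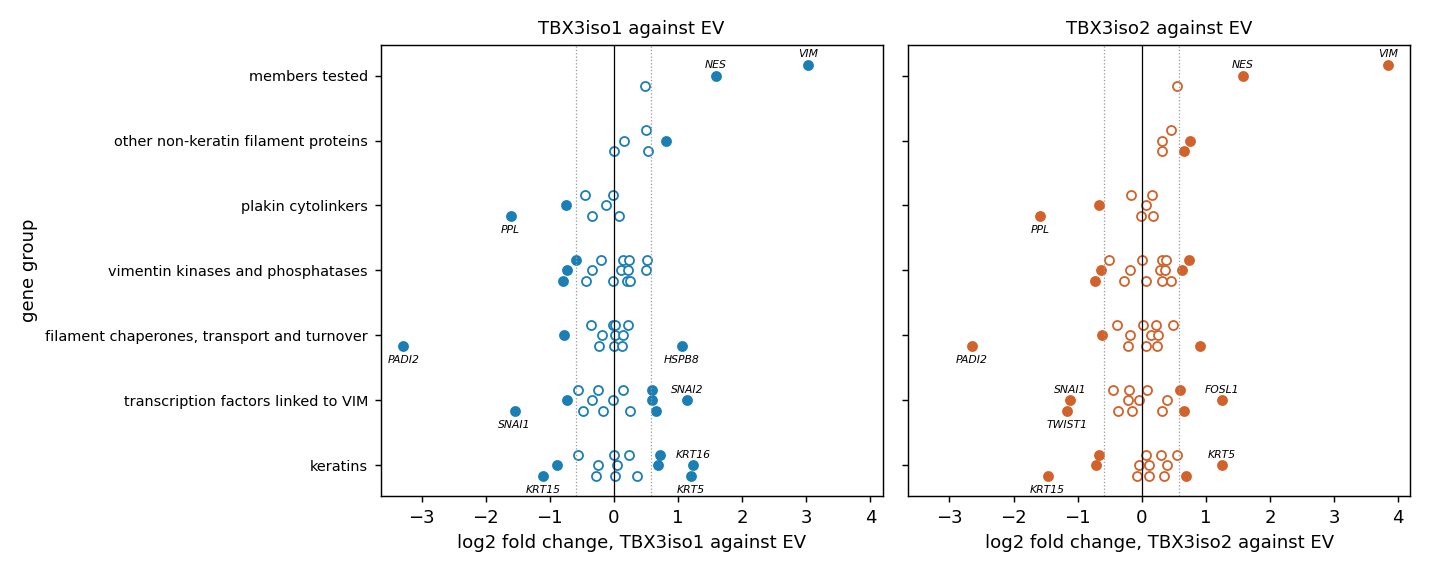
log2 fold change against EV with TBX3iso1 (left, blue) and TBX3iso2 (right, orange) of the tested members and of 6 gene groups, 1 point per gene with small vertical offsets for legibility. Filled points were called, dotted lines mark a fold change of 1.5, and called genes beyond 1 on the log2 scale are named. *VIM* lies farthest right in both panels and *PADI2* farthest left.

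Markers of cells that carry these filaments were mostly near 0. Of 10 fibroblast markers, 7 were under 0.5 RPKM in every library, *COL3A1*, *PDGFRB* and *THY1* among them, and 2 were tested. The remaining marker, *LUM*, was 0.267 and 0.190 RPKM in EV, 0.440 and 0.524 with TBX3iso1, and 0.138 and 0.151 with TBX3iso2. In the same order, the low *COL1A2* was 0.0418 and 0.0477, 0.276 and 0.354, and 0.0539 and 0.0376 RPKM. The low *FAP* went the other way, at 0.130 and 0.144, 0.123 and 0.0633, and 0.0349 and 0.0417 RPKM. *LUM*, *COL1A2* and *FAP* are named after their values were seen. The summed level of the 10 markers was 31.4 to 33.6 RPKM in EV, 30.8 to 30.9 RPKM with TBX3iso1 and 21.7 to 22.3 RPKM with TBX3iso2, most of it from *FBLN1*. *COL1A1*, a fibrillar collagen chain, rose by 0.77 (adjusted p = 6.55e-04) and 0.70 (adjusted p = 9.48e-04), and *FBLN1*, a matrix glycoprotein, differed by -0.31 with TBX3iso1 and fell with TBX3iso2 by a log2 change of -0.92 (adjusted p = 1.22e-04). The 4 muscle markers in the table, *CKM* and *ACTA1* among them, summed to at most 0.335 RPKM, and none was tested.

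The 4 neuronal markers in the table summed to 1.21 to 1.39 RPKM in EV, 1.00 to 1.08 RPKM with TBX3iso1 and 1.80 to 1.87 RPKM with TBX3iso2. *SYT1*, a synaptic vesicle protein and the 1 tested, fell with TBX3iso1 by a log2 change of -1.07 (adjusted p = 0.00151), a call lost at a pseudocount of 1 (-0.54). *GAP43*, a growth cone protein named after its values were seen, was 0.0107 and 0.0136 RPKM in EV, 0.501 and 0.503 RPKM with TBX3iso1, and 0.728 and 0.814 RPKM with TBX3iso2, and it failed the filter. The 6 glial markers in the table summed to 9.44 to 10.5 RPKM in EV, 10.3 to 11.6 RPKM with TBX3iso1 and 11.7 to 13.4 RPKM with TBX3iso2, nearly all from *MBP*. *AQP4*, a marker of astrocytes, was at or near 0, and *S100B* fell with TBX3iso1 by a log2 change of -0.91 (adjusted p = 0.00440), a call lost at a pseudocount of 1 (-0.39).

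Of 6 endothelial and blood cell markers, 4 were under 0.5 RPKM in every library. Their sum was 50.7 to 51.3 RPKM in EV and 35.3 to 35.4 RPKM in both isoform lines, mostly *CD68*. *PECAM1* (CD31), an adhesion molecule of endothelium, fell by log2 changes of -2.56 (adjusted p = 7.75e-06) and -2.41 (adjusted p = 1.01e-05). Of 10 epithelial markers, 4 fell with TBX3iso1 and 2 with TBX3iso2, with medians of -0.52 and -0.28. Of all genes tested, 14.1% and 12.3% fell. The markers that fell were *CDH1* (log2 change -0.70), *CLDN7* (-0.78), *GRHL2* (-0.78) and *ESRP1* (-0.60) with TBX3iso1, and *CLDN7* (-0.62) and *KRT19* (-0.72) with TBX3iso2. The *ESRP1* call was lost under median-ratio scaling (-0.55) and without EV replicate 1 (-0.57) or TBX3iso1 replicate 2 (-0.54). *CLDN7* with TBX3iso2 was not called without TBX3iso2 replicate 1 (-0.53). The sum of the 10 markers, most of it from keratins, lay between 2500 and 3298 RPKM in every library. The part of other cells in the rise of *VIM* was not tested beyond these values.

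The genes whose pattern over the 6 libraries was most like that of *VIM* were *APCDD1L-AS1*, *SLC16A9*, *MARCH4*, *XAGE2* and *TMEM98*. Likeness was the root mean square difference of log2(RPKM + 0.1) after subtraction of the EV mean, and it ran from 0.378 for *APCDD1L-AS1* to 0.596 for *TMEM98*. All 5 had much lower levels than *VIM*, with EV means between 0.0400 and 0.370 RPKM, and passed the filter only through the isoform lines. At such levels the 0.1 RPKM added before the log shapes the likeness. In RPKM without it, the ratios of means to EV with TBX3iso1 and TBX3iso2 were 26.8 and 25.2 for *SLC16A9*. They were 6.90 and 9.56 for *TMEM98*, against 8.20 and 14.4 for *VIM*. Since the 5 genes were chosen for this pattern, their values are a description and no test is given. *APCDD1L-AS1*, a noncoding antisense gene, was 0.151 and 0.109 RPKM in EV, 1.32 and 1.59 RPKM with TBX3iso1, and 4.99 and 4.47 RPKM with TBX3iso2, and *TMEM98*, which encodes a membrane protein, was 0.387 and 0.353, 2.49 and 2.62, and 3.44 and 3.64 RPKM. Even among genes chosen for likeness, *SLC16A9*, a carboxylate transporter, and *MARCH4*, a ubiquitin ligase, had lower means with TBX3iso2 than with TBX3iso1.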

How the data were processed

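Stranded mRNA libraries of the EV, TBX3iso1 and TBX3iso2 transfectants of 21NT were sequenced as 51-base paired-end reads. The authors aligned reads to hg19 with TopHat in Galaxy, and the deposited RPKM values were made in Partek Genomics Suite on a linear scale. Software versions, the gene annotation and the use of strand in counting are not given in the sources used here. The table has no gene counts, so precision was taken from the spread between the 2 libraries per line.

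The 12805 of 20824 genes that averaged 0.5 RPKM or more across the 6 libraries were fitted as log2(RPKM + 0.1) with limma 3.58.1 (R 4.3.3), 1 mean per line, with trend and Benjamini-Hochberg adjustment. Fold changes are on that scale, which understates changes of low genes. The fit was also tested on simulated data. With 2 libraries per line, no exact permutation test of 1 line against another can pass 0.05.

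Groups came from the labels. Members and gene lists were chosen with earlier results of these data known. The text names the members, *TBX3*, *VIM-AS1*, 2 genes on each side of *VIM*, the 5 genes nearest in pattern, and of each list at most 6 genes called against EV plus *SNAI2*, *KRT8*, *KRT18*, *LMNA* and *PLEC*. Exceptions, and list genes given as low, are said to be such. Primers, RefSeq promoters and transcripts were placed on GRCh37.

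Each fit was repeated with pseudocounts of 1 and 0.01 RPKM, without a filter, with a filter at 2 RPKM, after quantile normalization or median-ratio scaling, with only the 2 lines compared, with a replicate block, without the trend, and without each library in turn.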

Additional observations from a re-analysis of the deposited data

Results flagged for a closer look

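The change with TBX3iso2 differed from the change with TBX3iso1 in 8 of the genes named for other reasons than their likeness to *VIM*. Each passed limma's test of the isoform difference and a fold over 1.5. Over all 12805 genes tested, 6.29% were called between the isoforms. Most list genes were named because they were called against EV, so the count of 8 is a description and cannot be set against that share. The difference, TBX3iso2 minus TBX3iso1 on the log2 scale, was 0.81 for *VIM* (adjusted p = 0.00115) and -1.60 for *VIM-AS1* (adjusted p = 2.79e-04), so the 2 overlapping genes differed in opposite directions. It was -0.76 for *KRT6B* (adjusted p = 0.0178), 0.66 for *FOSL1* (adjusted p = 0.00331), 0.63 for *PADI2* (adjusted p = 0.0206), -0.60 for *FBLN1* (adjusted p = 0.00327), 0.86 for *SYT1* (adjusted p = 0.0130) and 0.71 for *S100B* (adjusted p = 0.0322). The calls of *VIM*, *VIM-AS1* and *FOSL1* held under all alternatives run. The other 5 were lost under at least 2 alternatives, and in those fits the smallest difference was 0.43 for *PADI2* (without TBX3iso1 replicate 2), -0.55 for *FBLN1* (without TBX3iso2 replicate 1), 0.42 for *SYT1* and 0.29 for *S100B* (both at a pseudocount of 1), and -0.74 for *KRT6B* (without TBX3iso1 replicate 2).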

How the results depend on the processing

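*VIM* was called in all 3 comparisons under every alternative, at 2.96 to 3.09 with TBX3iso1, 3.77 to 3.88 with TBX3iso2 and 0.74 to 0.87 between the isoforms (log2). *NES* was called against EV throughout, at 1.11 to 1.79 and 1.10 to 1.73, with the lowest values at a pseudocount of 1. *SYNM* became a call under quantile normalization (0.59 and 0.61), with TBX3iso1 without TBX3iso1 replicate 2 (0.59) and with TBX3iso2 without EV replicate 1 (0.63) or TBX3iso2 replicate 2 (0.66). Isoform differences that were not called ranged, over fits without a library, from -0.096 to 0.066 for *NES* (0.066 without TBX3iso2 replicate 1) and from -0.038 to 0.188 for *SYNM* (-0.038 without TBX3iso1 replicate 2 and -0.033 without TBX3iso2 replicate 1). Over all genes, a pseudocount of 1 gave 1812 calls instead of 2757 with TBX3iso1 and 1870 instead of 2720 with TBX3iso2. Calls between the isoforms were 419 at that pseudocount and 504 at a mean of 2 RPKM instead of 805. Quantile normalization moved the higher share of calls with TBX3iso1 from 34.6% to 49.0%, and between the isoforms median-ratio scaling moved it from 55.2% to 43.5% and quantile normalization to 44.7%. No scaling moved the median of all genes by over 0.1. A replicate block left the changes of *VIM* at 3.03, 3.84 and 0.81 and changed no member's call (2838, 2795 and 900 genes called). No source says that the replicate numbers pair the samples, and with 2 numbers per line the values cannot settle it: deviations of replicates correlated at 0.22 for EV and TBX3iso1, 0.114 for EV and TBX3iso2 and 0.499 for the isoform lines, all above 0.1. Among the lists, calls of other non-keratin filament genes with TBX3iso1 were 2 under either scaling and 3 without EV replicate 1, instead of 1, and with TBX3iso2 1 instead of 2 at a pseudocount of 1 or without EV replicate 2. Plakin calls were 1 instead of 2 under several alternatives, as *EPPK1* or *DSP* lost its call, and kinase and phosphatase calls with TBX3iso2 were 2 instead of 4 without TBX3iso2 replicate 2. Depth limits *DES* and *NEFH*, at 0 to 2 steps per library.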
